A study of Mus musculus with 9 samples.

Results

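The oocyte and zona pellucida genes are 10 genes that female germ cells transcribe in the growing follicle: Zp1, Zp2, Zp3, Gdf9, Bmp15, Figla, Nlrp5, Ooep, Oosp1 and Dppa3. They were taken by symbol from the 53700 gene IDs of the deposited count table, and all 10 were found, each under 1 Ensembl ID. They were chosen by their levels in these libraries (CPM in the 9 samples), so those levels, and the fitted values and calls made from them, are given as a description and not as evidence of a difference. The tissue was eWAT, epigonadal white fat that lies along the female reproductive tract, and RNA-seq was done on 9 female NSG mice, an immunodeficient strain without functional lymphocytes. Tissue came from week 12, from 3 untreated mice (4, 7 and 10), from 3 mice (36, 37 and 41) that had received extracellular vesicles (EVs) from the MDA-MB-231 line by tail vein, as 10 injections over 5 weeks, and from 3 mice (17, 21 and 22) that carried an MDA-MB-231 tumour in the mammary fat pad. This line comes from a human triple-negative breast tumour. All 9 mice were labelled wild type for genotype and shared the NSG background, each library came from 1 mouse, and no age beyond the time point is given in the labels. The labels give the 3 controls as untreated, and the study's text has tumour-free and PBS-injected controls.

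The zona pellucida is the glycoprotein coat that the oocyte secretes around itself and through which sperm must pass, and in the mouse it is built from ZP1, ZP2 and ZP3. FIGLA is the transcription factor that switches on the zona genes by binding E-boxes in their promoters, and NOBOX is a homeobox factor of the same stage that binds elements ending in TTG or TTA. GDF9 and BMP15 are secreted by the oocyte and act on granulosa cells, and the products of Nlrp5, Ooep and Dppa3 are stored in the egg for the embryo.

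As background, promoters of these genes are shown at the E-box and at the NOBOX element, the sites of those 2 factors. Whether these sites bear on the levels below was not tested. The RefSeq promoter table of GRCm38.p6 held 7 promoters of 6 of the 10 genes, with 2 for Nlrp5. The letters searched, on both strands of the 250 bases before each start, were CANNTG for the E-box. For the NOBOX element they were TAATTG, with TAATTA and also TAGTTG as further forms. Each line gives a window of 30 bases on the gene's strand with the matched letters in capitals, and a match in capitals that reads CAATTA or CAACTA is the NOBOX element on the opposite strand.
Zp3 E-box, chr5:135979912-135979941 (+): ttgaataggaatCACGTGgagtgtctttac
Figla E-box, chr6:86017006-86017035 (+): ccacctcgcactCAGGTGcgtcaagtgtgt
Oosp1 E-box, chr19:11691228-11691257 (-): ggatttgagtttCAAGTGtgctttgagaac
Ooep NOBOX element, chr9:78378766-78378795 (-): aggaggtgattcCAATTAagccaccaaatc
Nlrp5 NOBOX element, chr7:23385688-23385717 (+): aagaatacaatcTAATTAaggggaggggcg
Bmp15 NOBOX element, chrX:6320932-6320961 (-): cagcagcatcaaTAATTAttttatttattt

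The capitals began 181 bases before the start of Zp3, 173 before Figla, 194 before Oosp1, 195 before Ooep, 189 before the upstream start of Nlrp5 and 225 before Bmp15. Only 1 window per gene is shown, and other matches in the same promoters are left out. These include E-boxes that began 134 and 55 bases before Zp3, 249 and 48 before Oosp1 and 78 before Ooep. The places shown are therefore not a common position of the sites. An E-box was found in 7 of the 7 promoters and in 66.2% of all 32851 promoters of the table. The form CACGTG, shown for Zp3, was in 1 of 7 and in 6.02% of all promoters, and CAGGTG, shown for Figla, was in 3 of 7 and in 17.2%. TAATTG was in 1 of 7 (7.17% of all), TAATTA in 2 of 7 (4.84%) and TAGTTG in 2 of 7 (5.69%). The E-box forms are all matches of CANNTG too, so these counts overlap. A match describes letters in a window and is not evidence of binding.

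The 9 libraries held 20097628 to 26149263 counts, and each pair of mice within a group differed beyond sampling noise, with a chi-square of 32.2 to 924 per degree of freedom. Levels are given as CPM, counts relative to the library total, after TMM scaling, whose factors ran from 0.756 to 1.32. A count of 0 allowed a level of up to 0.103 to 0.174 CPM (3 counts per library), which covers counting error only. The fat cell genes that define the labelled tissue were present in every library, but unevenly: Adipoq, which encodes the fat cell hormone adiponectin, ran from 131 CPM in untreated 7 to 4419 CPM in EV 37. In untreated 10, EV 36 and EV 41, the libraries that matter below, it stood at 334, 726 and 632 CPM.

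The oocyte genes were abundant in untreated 10, EV 36 and EV 41 and near 0 in the other 6 libraries. Summed over the 10 genes, untreated 10 held 303 CPM, EV 36 held 367 CPM and EV 41 held 246 CPM. The sum was 0.224 CPM for untreated 4, 0.931 CPM for untreated 7 and 0.388 CPM for EV 37, and 0.448, 0.579 and 0.439 CPM in tumour-bearing 17, 21 and 22. The contrast therefore ran between mice of the same group. Untreated 10 stood 1354-fold above untreated 4 (95% exact counting interval 529 to 4972) and 326-fold above untreated 7 (224 to 495). EV 36 stood 946-fold above EV 37 (498 to 2069) and EV 41 stood 636-fold above it (335 to 1391). In bulk tissue, fewer cells of a type and less RNA per cell cannot be told apart.

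**Figure D1:**
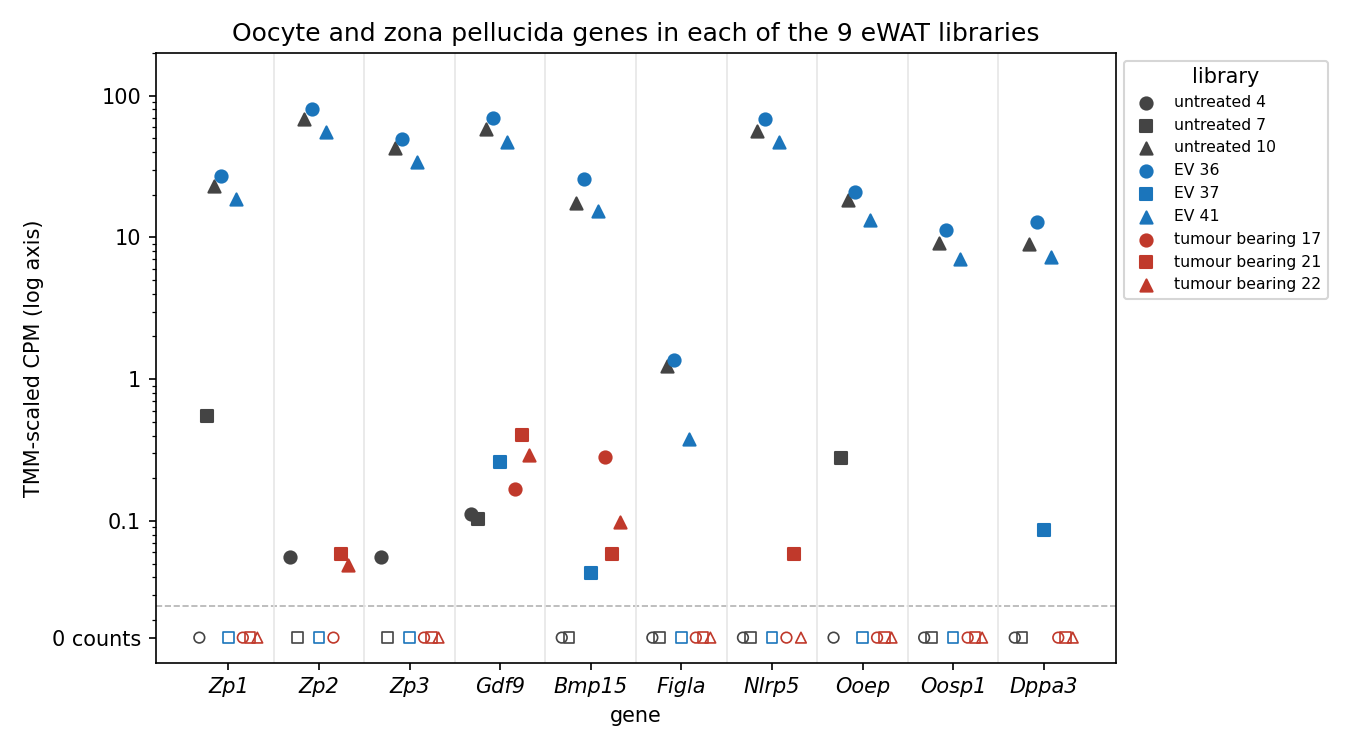
TMM-scaled CPM of each of the 10 genes (x axis) in each of the 9 libraries, on a log axis. Each symbol is 1 library, coloured by group, and open symbols below the dashed line are libraries at 0 counts. Untreated 10, EV 36 and EV 41 are the 3 highest libraries for every gene, from 0.377 CPM for Figla to 80.9 CPM for Zp2, while the other 6 stay at 0.552 CPM or below.

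The zona pellucida genes were the most abundant class by counts. Zp2, which encodes the zona protein that binds sperm, was at 67.9 CPM in untreated 10, 80.9 CPM in EV 36 and 55.8 CPM in EV 41. It was at 0.0560 CPM in untreated 4, 0.0579 CPM in tumour-bearing 21 and 0.0488 CPM in tumour-bearing 22, which was 1 read each, and at 0 in untreated 7, EV 37 and tumour-bearing 17. Untreated 10 lay between EV 36 and EV 41, and the untreated and EV groups overlapped. Zp3, which encodes the partner of ZP2 in the zona filament, was at 0.0560, 0 and 42.9 CPM in untreated 4, 7 and 10 and at 49.4, 0 and 34.2 CPM in EV 36, 37 and 41. It had 0 counts in all 3 tumour-bearing libraries. Zp1, the protein that crosslinks the filaments, was at 0, 0.552 and 23.2 CPM in the untreated mice, at 27.1, 0 and 18.5 CPM in the EV mice and at 0 in all 3 tumour-bearing mice. The 16 reads of Zp1 in untreated 7 came without a read of Zp2 or Zp3.

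Of the oocyte-secreted growth factors, Gdf9 was at 0.112, 0.103 and 58.1 CPM in untreated 4, 7 and 10 and at 69.1, 0.258 and 47.2 CPM in EV 36, 37 and 41. In tumour-bearing 17, 21 and 22 it was at 0.168, 0.405 and 0.293 CPM, so that Gdf9 was the one gene of the 10 with reads in all 9 libraries. In GRCm38 the start of Gdf9 lies 192 bases from Uqcrq, a respiratory chain gene on the opposite strand, which was at 83.7 to 326 CPM. The part of Uqcrq in the traces of Gdf9 was not tested. Bmp15, the X-linked relative of Gdf9, was at 0, 0 and 17.4 CPM in the untreated mice, at 25.8, 0.0431 and 15.4 CPM in the EV mice and at 0.280, 0.0579 and 0.0976 CPM in the tumour-bearing mice. For both factors the same 3 libraries were far above the rest, and EV 36 was the highest.

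Figla, the regulator of the zona genes, was the least abundant of the 10. It was at 0, 0 and 1.24 CPM in untreated 4, 7 and 10, at 1.36, 0 and 0.377 CPM in EV 36, 37 and 41 and at 0 in all 3 tumour-bearing mice. These levels rested on 33, 38 and 10 reads; EV 41 was the lowest of the 3 high libraries, as for the zona genes.

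Nlrp5 and Ooep encode subunits of the subcortical maternal complex, a structure under the egg membrane that early cleavage needs. Nlrp5 was at 0, 0 and 56.1 CPM in untreated 4, 7 and 10, at 68.1, 0 and 47.3 CPM in EV 36, 37 and 41 and at 0, 0.0579 and 0 CPM in tumour-bearing 17, 21 and 22. Ooep was at 0, 0.276 and 18.4 CPM, then at 20.8, 0 and 13.2 CPM, and at 0 in the 3 tumour-bearing mice. Both followed the order of the zona genes. A pseudogene copy, Nlrp5-ps, had 2 to 56 reads per library, and reads that fit both copies of Nlrp5 may have been split between them. The expected counts of Nlrp5 before rounding were 1488.95, 1901.83 and 1253.55 in untreated 10, EV 36 and EV 41. How reads were shared between the copies was not tested. Dppa3-ps had 0 reads in all 9 libraries.

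Oosp1, a secreted protein of the oocyte, was at 0, 0 and 9.19 CPM in untreated 4, 7 and 10 and at 11.3, 0 and 7.02 CPM in EV 36, 37 and 41. Dppa3, which protects the maternal genome from demethylation after fertilisation, was at 0, 0 and 9.04 CPM in the untreated mice and at 12.8, 0.0861 and 7.28 CPM in the EV mice. Both had 0 counts in every tumour-bearing library. Again untreated 10, EV 36 and EV 41 held nearly all reads of these genes.

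In the 6 libraries without high levels the 10 genes gave 67 reads in all, and 42 of 60 pairs of gene and library had 0 counts. Of these reads, 27 were from Gdf9, 9 from Bmp15 and 24 from Zp1 and Ooep in untreated 7. The highest level of any of the 10 there was 0.552 CPM.

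The 3 libraries with high levels held the oocyte genes in nearly the same proportions. Zp2 made up 22.4% of the summed counts in untreated 10, 22.1% in EV 36 and 22.6% in EV 41. Gdf9 made up 19.1, 18.9 and 19.2%, Nlrp5 18.5, 18.6 and 19.2%, Zp3 14.1, 13.5 and 13.9%, and Zp1 7.64, 7.40 and 7.52%. For these 5 genes the 95% Wilson intervals of the 3 libraries overlapped. Bmp15 varied more, at 5.74% (95% interval 5.25 to 6.26) in untreated 10, 7.04% (6.56 to 7.55) in EV 36 and 6.25% in EV 41. Figla varied most, at 0.410, 0.371 and 0.153%, a 2.67-fold range, and its share in EV 41 rested on 10 reads. The intervals cover counting error only, since reads without molecular identifiers are not independent molecules.

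**Figure D2:**
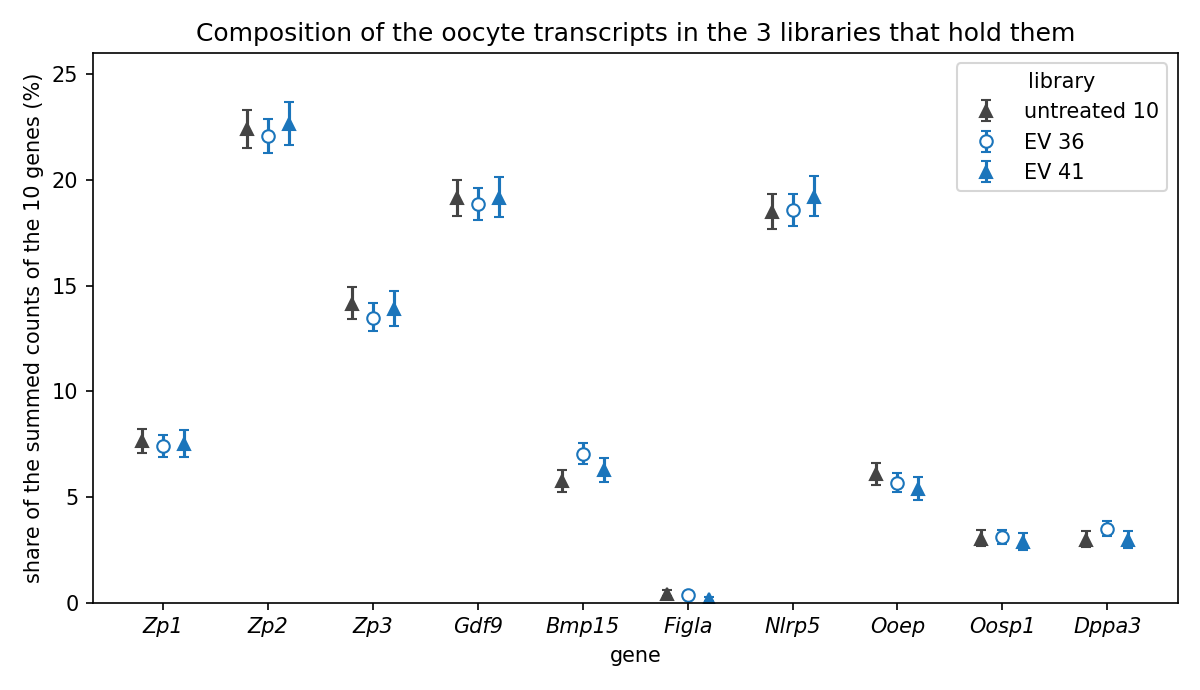
Share of the summed counts of the 10 genes that each gene (x axis) took in untreated 10, EV 36 and EV 41, in percent. Bars are 95% Wilson intervals of counting error; Zp2 took 22.1 to 22.6% and Figla 0.153 to 0.410%.

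Per kilobase of the longest coding transcript, the order of the genes changed. Averaged over the 3 high libraries, Gdf9 was at 32.4, Zp3 at 31.9 and Zp2 at 30.5 CPM per kilobase. Nlrp5 followed at 16.3, Zp1 at 11.7, Dppa3 at 11.6, Oosp1 at 9.45, Ooep at 8.18, Bmp15 at 6.38 and Figla at 1.31 CPM per kilobase. Neighbours at the top of this order did not keep their places: Zp3 led Gdf9 in untreated 10 and Gdf9 led Zp3 in both EV libraries, and Zp1 and Dppa3 changed places in EV 36.

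Between these 3 libraries the amounts also differed in a common direction. The summed level in EV 36 was 1.21 times that in untreated 10 (95% exact counting interval 1.17 to 1.24) and that in EV 41 was 0.812 times (0.786 to 0.839). Over the 9 genes with at least 30 reads in all 3 libraries, the ratio of EV 36 to untreated 10 had a median of 1.19 (1.13 to 1.48) and that of EV 41 a median of 0.806 (0.719 to 0.885). Over all 14867 tested genes with that many reads the medians were 1.03 and 1.01. Most of these genes lay between 0.667 and 1.70 in EV 36 and between 0.674 and 1.62 in EV 41. The ratios of all 9 oocyte genes lay inside those ranges, so they were not unusual between these libraries. A list of 35 other oocyte genes, 33 of which had enough reads, had medians of 1.19 and 0.870.

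The 33 other oocyte genes had ratios to untreated 10 of 0.917 to 2.11 in EV 36 and 0.584 to 1.29 in EV 41. Theca and luteal genes spread more widely than these, and granulosa and cumulus genes did so through Cyp19a1 and Inhba. Granulosa and cumulus genes, from the cells that surround the oocyte, had median ratios of 1.12 in EV 36 and 1.02 in EV 41 (15 genes). Cyp19a1, which encodes the aromatase that makes oestrogen, was at 0.0716 and 0.0756 of its level in untreated 10, and Inhba was at 0.324 and 0.351. The rest of that list ran from 0.878 to 1.78 in EV 36 and from 0.686 to 1.41 in EV 41. Theca and luteal genes, of the steroid-producing cells, had medians of 0.298 and 0.479 (12 genes), from 0.0673 to 1.90 in EV 36 and from 0.0149 to 2.08 in EV 41. The steepest was Cyp17a1, the enzyme that makes androgens in theca cells, at 0.0149 in EV 41. Oviduct genes had medians of 0.870 and 0.803 (4 genes). Fat cell genes had medians above 1 in both EV libraries, at 1.82 and 2.23 (6 genes). The ratios are between single mice, so they describe these libraries and not the conditions. Cyp19a1, Inhba and Cyp17a1 were chosen after their values were seen.

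**Figure D3:**
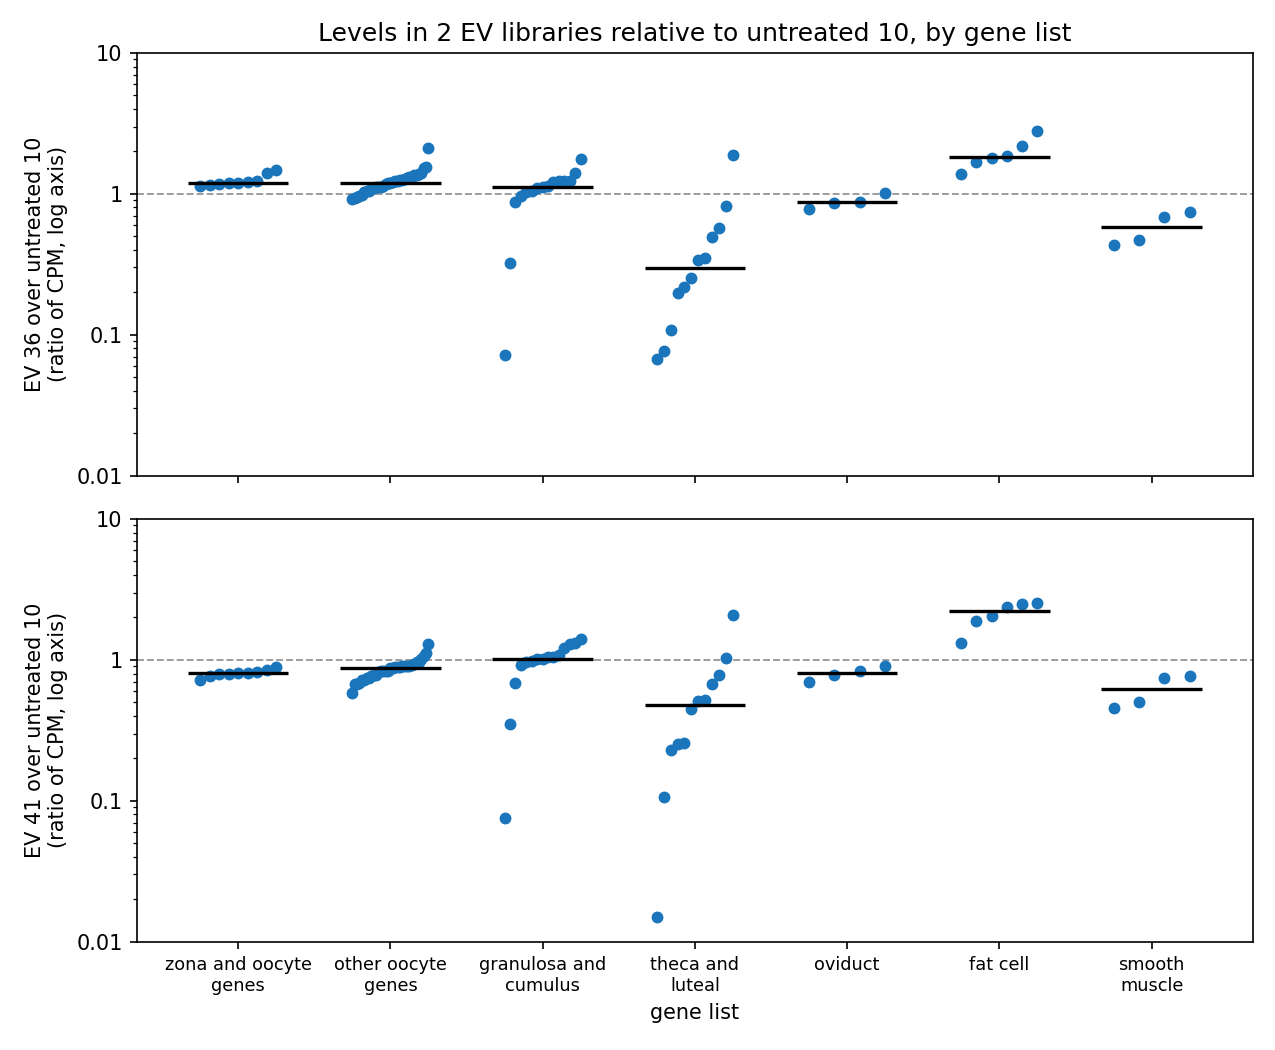
Ratio of CPM in EV 36 (top) and EV 41 (bottom) to untreated 10, on a log axis, for genes with at least 30 reads in all 3 libraries. Each point is 1 gene of the list on the x axis and the black line is its median. The 9 zona and oocyte genes with enough reads lie close together, with medians of 1.19 and 0.806. Other oocyte genes spread from 0.584 to 2.11 and theca and luteal genes from 0.0149 to 2.08.

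The fixed lists gave the wider pathway. Of the 35 other oocyte genes, 34 passed the filter on low counts. Of these, 31 had untreated 10, EV 36 and EV 41 as their 3 highest libraries, against 21.3% of all 17876 genes tested. The 10 members did so too, but the 3 libraries were picked by the members' levels. The list was chosen with earlier results of these data known. Its genes near 0 in the other 6 libraries passed the filter only through the 3, so these counts are a description. The most abundant of that list was Spin1, a chromatin reader, which was also expressed elsewhere, at 53.1 to 123 CPM in the 6 other libraries and 154 to 164 CPM in the 3. Padi6, an enzyme of the egg's cytoplasmic lattices, was at 106, 132 and 88.4 CPM in untreated 10, EV 36 and EV 41, at 0.0560 CPM in untreated 4 and at 0 in the other 5. Zbed3 and Kit, ranked 2 and 4 by mean CPM, were expressed in all libraries. Zbed3 was at 100, 109 and 89.5 CPM in the 3 and at 17.1 to 25.4 CPM in the other 6. Kit was at 48.0, 50.2 and 35.5 CPM in the 3 and at 9.86 to 22.9 CPM in the other 6. Of the 35, 12 had 0 counts in all 6 other libraries. The exceptions were Bnc1, whose highest library was EV 37 at 12.4 CPM, Dnmt3l, at 30.6 CPM in untreated 7 and 1.54 to 3.26 CPM in the 3, and Uchl1, at 51.6 CPM in untreated 7 against 38.8 to 50.7 CPM in the 3. Bnc1, Dnmt3l and Uchl1 were chosen after their values were seen.

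Among 11 germ cell and early follicle regulators, 7 of the 10 that passed the filter had the same 3 highest libraries, against 21.3% of all genes tested. Nobox, the gene of the homeobox factor named above, was at 9.91, 11.3 and 7.93 CPM there, at 0.129 CPM in EV 37 and at 0 in the other 5. Tcf12, the most abundant of the list, ran otherwise, at 123 CPM in untreated 7 and 61.3 to 71.5 CPM in the 3. So did Sycp3, a meiotic axis protein, at 72.4 CPM in untreated 4 and 11.8 to 18.8 CPM in the 3. Stag3, chosen after its values were seen, was at 1.42 CPM in EV 37 and 1.02 to 1.72 CPM in the 3. Summed over the 11 genes, the 3 held 111 to 124 CPM and the other 6 libraries held 92.0 to 136 CPM, so the sums overlapped. Testis and sperm genes stayed low in all 9 libraries, with sums of 0.781 to 5.15 CPM over 6 genes.

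The receptors and signal carriers of GDF9 and BMP15 had reads in every library. Of 10 such genes, 2, Bmpr1b and Fst, had untreated 10, EV 36 and EV 41 as their 3 highest libraries. This is near the 21.3% of all 17876 genes tested, so nothing about the list is read from that count. Bmpr1b, a type I receptor of BMP15, was at 31.4, 48.6 and 31.6 CPM in those 3 and at 0.224 to 4.31 CPM in the other 6. Fst, which encodes the activin and BMP antagonist follistatin and is also on the granulosa list, was at 94.5, 90.9 and 86.3 CPM in the 3 and at 3.10 to 20.2 CPM in the other 6. Bmpr2, the type II receptor that binds both factors, was at 141, 158 and 127 CPM in those 3 and at 78.4 to 161 CPM in the other 6. Smad4, the shared carrier to the nucleus, was at 73.4, 82.1 and 79.0 CPM in the 3 and at 62.4 to 141 CPM in the other 6. For Bmpr2 and Smad4 the ranges overlapped. Bmpr1b and Fst were chosen after their values were seen.

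Most ovarian markers and all 4 oviduct markers had the same 3 highest libraries as the oocyte genes, against 21.3% of all 17876 genes tested. Granulosa and cumulus genes had summed levels of 3337 to 3572 CPM in the 3 libraries and 139 to 326 CPM in the other 6. Of these 17 genes, 13 had the same 3 highest libraries. Kitl ran the other way, at 17.4, 21.5 and 18.7 CPM in the 3 and at 41.8 to 69.0 CPM in the other 6. Ptx3, Has2 and Tnfaip6 were highest in a tumour-bearing library. Inha, a subunit of the granulosa hormone inhibin, was at 1384, 1420 and 1405 CPM in these 3 (untreated 10 first, then EV 36 and EV 41) and at 0.537 to 4.14 CPM in the other 6. Theca and luteal genes summed to 3463 to 9430 CPM and 206 to 446 CPM (9 of 12 genes), and oviduct genes to 89.9 to 107 CPM and 0.0976 to 1.74 CPM (4 of 4 genes). Of the theca and luteal genes, Parm1, Ptgfr and Scarb1 did not have those 3 highest libraries. Parm1 was at 283 CPM in untreated 7 and at 25.5 to 53.0 CPM in the 3. Kitl, Ptx3, Has2, Tnfaip6, Parm1, Ptgfr and Scarb1 were chosen after their values were seen. Of 8 smooth and skeletal muscle genes, 0 had those 3 highest libraries. Smooth muscle genes summed to 10865 CPM in untreated 7 and to 474 to 2224 CPM in the other 8 libraries. The part of these tissues in the fat pad RNA was not tested.

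The 3 group comparisons were fitted over the whole table. EV and tumour-bearing mice were compared with the same 3 untreated mice, so these results share samples. The calls below are on the values by which the 10 genes were chosen, and the 10 passed the filter through their levels in untreated 10, EV 36 and EV 41. The counts of calls and the shares of all genes are therefore printed as a record of the fit, and nothing is read from them. For EV versus untreated, the 10 genes had log2 fold changes of 0.47 (Figla) to 1.24 (Bmp15), with a median of 1.00 against 0.00 for all genes tested. The mean of Zp2 over 3 EV mice was 45.6 ± 41.4 CPM (SD, n = 3), against 22.7 ± 39.2 CPM for untreated ones, and its log2 fold change was 1.01 ± 2.33 (SE). With edgeR, 0 of the 10 were called at an adjusted p under 0.05 (0.00559% of all genes were called), 0 had an unadjusted p under 0.05 and 0 were called by DESeq2 (0.0895% of all). In 0 of the 10 did the groups not overlap (2.87% of all genes). Without untreated 10 the log2 fold changes were 5.67 to 12.76, and without EV 36 they were -1.11 to 0.41.

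For tumour bearing versus untreated, the level of Zp2 was 0.0356 ± 0.0311 CPM in tumour-bearing mice (SD, n = 3) and that of Gdf9 was 0.289 ± 0.119 CPM. The log2 fold changes of the 10 genes were -11.36 (Zp3) to -5.28 (Bmp15), with a median of -9.13 against -0.12 for all genes. Since 6 of the 10 had 0 counts in all 3 tumour-bearing libraries, their fitted values depend on the prior count. Against a floor of 3 counts per library, Zp3 was at least 88.0-fold lower, Zp1 at least 48.6-fold, Ooep at least 38.3-fold, Oosp1 at least 18.8-fold, Dppa3 at least 18.5-fold and Figla at least 2.55-fold, and with these bounds the median was -5.44. Zp2, with 2 reads, had a ratio of untreated to tumour-bearing of 684 in the pooled reads (95% exact counting interval 189 to 5648). Of its 1804 untreated reads, 1803 were from untreated 10. The interval covers counting error only and not the spread between mice, and the bounds above rest on the untreated mean. With edgeR, 0 of the 10 were called (0.218% of all genes), 3 had an unadjusted p under 0.05 (11.9% of all), and DESeq2 called 4 lower, namely Zp3, Gdf9, Oosp1 and Dppa3 (2.84% of all genes lower). In 0 of the 10 did the groups not overlap (11.8% of all). The contrast rests on 1 mouse: without untreated 10 the log2 fold changes were -5.75 to 4.76, and 4 of the 10 were above 0. Other tissue markers differed between the same libraries: the sum of skeletal muscle genes ran from 746 to 1702 CPM in the 3 tumour-bearing libraries, and from 3.47 to 91.2 CPM in the remaining 6, and edgeR called 3 of 4 of them higher in both tumour comparisons. Their part in the levels of the oocyte genes was not tested.

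For tumour bearing versus EV, the log2 fold changes were -12.32 (Zp3) to -6.52 (Bmp15), with a median of -10.21 against -0.06 for all genes and of -6.53 with the 6 genes at their bounds. Gdf9, the gene with the most reads in tumour-bearing mice, had 16 there against 3189 in EV mice. Zp2 had 2 against 3739, a ratio of EV to tumour-bearing of 1339 in the pooled reads (95% exact counting interval 370.4 to 11060). That interval too leaves out the spread between mice. With edgeR, 0 of the 10 were called (0.257% of all genes), 7 had an unadjusted p under 0.05 (14.1% of all), and DESeq2 called 5 lower, Zp2 beside the 4 above (3.62% of all genes lower). The groups did not overlap for 1 of the 10, Dppa3 (25.2% of all), and this rested on 2 reads in EV 37. EV 36 and EV 41 carried these values, and EV 37 was as low as the tumour-bearing mice.

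The 10 genes whose levels followed the summed oocyte level most closely over the 9 libraries were Cfap61, Trim61, Wdr63, Fbxw28, Nlrp4f, Fbxw14, Nlrp9b, Fbxw19, E330021D16Rik and C87977, by Pearson r of log2(CPM + 0.5), at 0.998 to 0.999 each. Cfap61, the closest, was at 5.65, 6.69 and 5.66 CPM in the 3 high libraries and at 0.172 CPM or below elsewhere. Trim61 was at 14.8, 16.7 and 11.9 CPM in the 3 high libraries and at 0.103 CPM or below elsewhere. Nlrp4f was at 12.5, 17.5 and 12.8 CPM there and at 0.116 CPM or below elsewhere. With 3 libraries high and 6 low, r mostly measures that split. Of 14113 genes compared, 693 (4.91%) reached r of 0.95, among them 22 of 29 other oocyte genes, 9 of 17 granulosa and cumulus genes, 4 of 12 theca and luteal genes, 3 of 4 oviduct genes and 0 of 6 fat cell genes. On the linear scale the 10 nearest were led by Padi6 and shared 2 of the 10, Fbxw28 and Trim61.

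The deposited columns named TPM differed from the counts in the low libraries. In untreated 7 they held a value above 0 for 10 of the 10 genes, up to 14.7 for Zp3, which had 0 counts there, and 6 of the 7 genes at 0 counts had values above 1. In tumour-bearing 17 this was so for 7 of 8 genes at 0 counts, and in tumour-bearing 22 for 6 of 7, with values up to 11.9. In untreated 4, EV 37 and tumour-bearing 21 all 10 genes were at 0, and in EV 41 Figla was at 0 although it had 10 reads. All levels above are therefore from the counts.

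**Figure D4:**
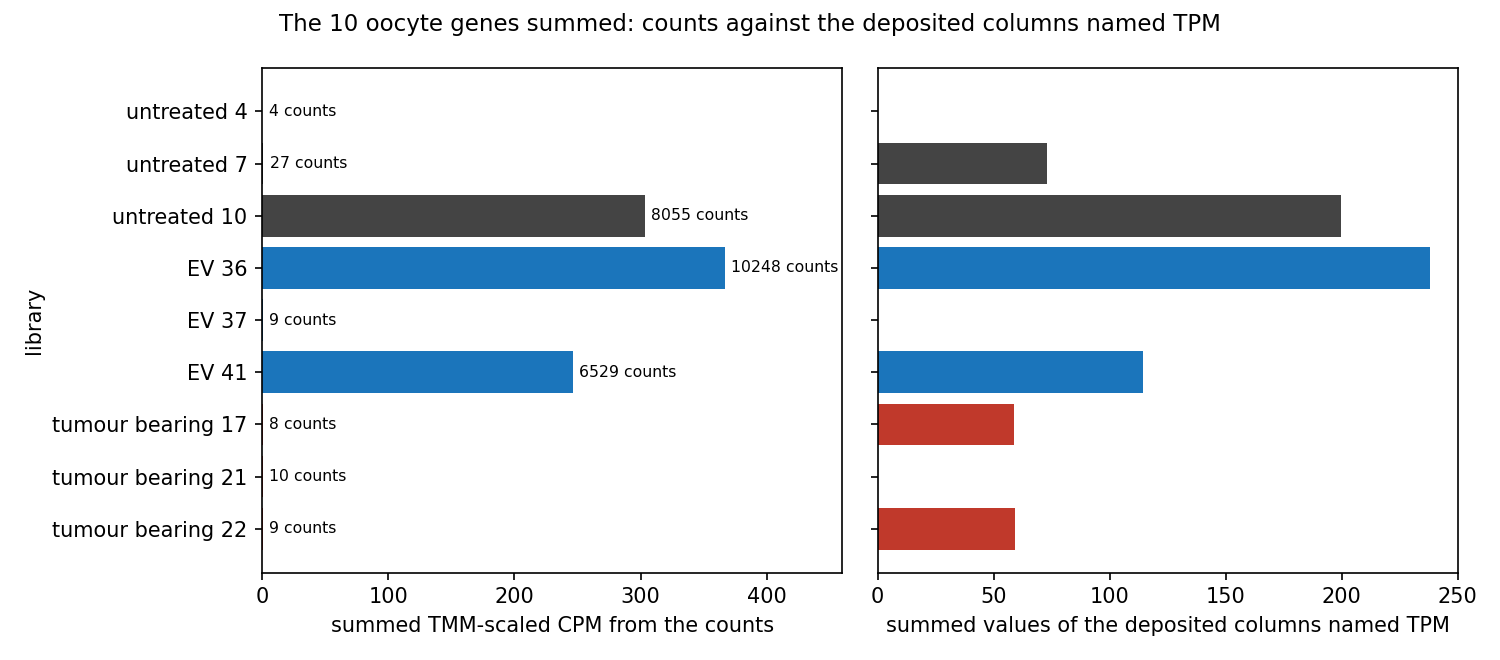
The 10 genes summed in each library, as TMM-scaled CPM from the counts (left, with the counts printed) and as the deposited columns named TPM (right), bars starting at 0 and coloured by group. In untreated 7 and tumour-bearing 17 and 22 the deposited columns sum to 73.0, 58.8 and 59.4 where the counts give 27, 8 and 9 reads.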

How the data were processed

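The deposited table gave expected counts (estimated by the authors with RSEM, not whole numbers) for 9 libraries, 1 per mouse. Per the study's methods, reads were trimmed with SeqPrep and Sickle, aligned with HISAT2 and assembled with StringTie. The submitters' notes differ: they list Bowtie 0.12.2 with builds mm8 and mm9. Labels mention TruSeq as well as SMARTER kits. No coordinates of the counted genes are printed, and their annotation is not stated in any source used. The columns the authors named TPM were treated as a score and entered no test, since genes at 0 counts had values above 0. No column was left unused for lack of a sample.

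The rounded values entered edgeR 4.0.16 under R 4.3.3 (filterByExpr, TMM, quasi-likelihood test, 1 term for group, all 9 libraries). The filter kept 17876 genes, including all 10 members, and the biological coefficient of variation was 62.8%. A call needed a p under 0.05 after Benjamini-Hochberg adjustment over all of these. Before use, the script of the fit was run on simulated counts with known changes. Alternatives were DESeq2 1.42.0, no scaling, no filter and leaving out each library. Symbols were matched for 52093 of 53700 IDs. No member shared its symbol with another ID, and 0 had EV counts equal to those of another gene.

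The members and the lists were chosen with earlier results of these data known. From each list the text names up to 4 members by mean CPM, and the 10 genes most like the members among those with at least 5 CPM in 1 library; genes named outside this rule are marked. Promoters and their positions are from RefSeq, GRCm38.p6. Transcript lengths are from the GENCODE annotation of GRCm38.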

Additional observations from a re-analysis of the deposited data

How the results depend on the processing

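Of the 10 genes, 0 were called by edgeR under any alternative, including leaving out each library; without the 3 libraries with oocyte transcripts 1 of the 10, Zp1, passed the filter. DESeq2 called 4 and 5 of the 10 in the tumour comparisons. The count of genes called over the whole table moved. For EV versus untreated it was 1, and 16 with DESeq2, 4 without a filter, 0 without the 3 libraries with oocyte transcripts (an alternative chosen after seeing the data) and 0 to 2 with 1 library left out. For tumour bearing versus untreated it was 39, and 750 with DESeq2, 0 without the 3 libraries and 8 (without tumour-bearing 22) to 38 with 1 library left out. For tumour bearing versus EV it was 46, and 900 with DESeq2, 0 without the 3 libraries and 0 (without EV 36) to 70 (without untreated 7) with 1 library left out. Without the 3 libraries the untreated and EV arms hold 2 and 1 mice. The summed level in tumour-bearing 21 was 0.455 CPM by library total against 0.579 CPM. Of the 10 genes most like the members, 2 were shared on the linear scale and 7 with levels by library total. No paired analysis was possible because the groups share no replicate number. With 3 mice a group and 3 libraries of 9 carrying nearly all reads, a group effect on these genes and which mice carried oocyte RNA cannot be told apart.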
